A study of Mus musculus with 3 samples.

Results

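Sites that carried both HDAC3 and KLF4 inside the transcribed span of genes were described in the epidermis of wild-type mouse embryos. They were taken from the authors' HDAC3 peak list by distance alone. An HDAC3 peak was kept when it overlapped a KLF4 peak by at least 1 base, meaning that their centres lay less than 1 peak width apart, all peaks having the same fixed width. Its own centre also had to fall within a protein-coding gene of GRCm38, over 1 kb away from any end of such a gene. This left 6594 shared gene-body peaks of 57936 HDAC3 peaks in all. Each had a KLF4 partner of its own. The span of 1 protein-coding gene held 6541 of them, and 53 lay where the spans of 2 genes overlap.

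Chromatin came from the dorsal epidermis of these embryos, collected at E18.5, near birth, when the outer barrier of the skin is being completed. The groups were an HDAC3 precipitation (antibody Abcam ab7030), a KLF4 precipitation (R&D AF3158) and input chromatin without antibody, with 1 library each. Whole dorsal epidermis mixes all its layers and any resident cells of other kinds, so fewer cells with a factor and less of it per cell cannot be told apart. The number of embryos is not given here. Depth was 56787485 tags for HDAC3 and 61432711 tags for KLF4. Both peak lists were called against the same input. With no replicate libraries there is no spread to test against, so all values are descriptions, and the exact Clopper-Pearson 95% intervals on shares cover counting error only.

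HDAC3 removes acetyl groups from histones, acts inside corepressor complexes, and does not itself bind DNA. KLF4 is a zinc finger transcription factor that reads GC-rich and CACCC-type DNA and is needed for the barrier of the skin. Gene bodies of mammals hold many enhancers as well as alternative promoters, so a peak inside a gene may lie at a regulatory element of that gene or of a neighbour.

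The label "gene body" was checked against annotated transcription starts, since the 1 kb rule uses only the outer ends of genes. On the chromosomes covered by the table of starts used here, 134 of 6345 shared gene-body peaks had their centre within 250 bp of a start annotated inside the gene (2.11%, 1.77 to 2.50). Of these, 96 sat at a start of the host gene, and 38 at a start of another gene, all of them noncoding RNA genes. The same held for 131 of 19368 gene-body HDAC3 peaks without KLF4 (0.676%) and for 244 of 14706 gene-body KLF4 peaks without HDAC3 (1.66%). These groups differ in height. Among peaks with a score of at least 50 tags, 71 of 2370 shared peaks, 14 of 392 HDAC3 peaks without KLF4 and 177 of 8351 KLF4 peaks without HDAC3 (2.12%) lay at such a start. The shared peaks and the HDAC3 peaks without KLF4 had overlapping intervals at that height (2.35 to 3.76% and 1.97 to 5.92%). Scores of the KLF4 list are not on the scale of the HDAC3 list. This limit kept 8351 of 14706 KLF4 peaks without HDAC3 but 392 of 19368 HDAC3 peaks without KLF4. The KLF4 group was thus not matched in height to the others. Whether a shared peak lies in an exon or an intron was not analysed here.

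Sequence was read at these internal starts, the places where RefSeq sequence of GRCm38.p6 was at hand. A total of 56 shared gene-body peaks lay wholly inside an annotated start window of 300 bases, 44 of them at a start of the host gene. The following are shown to give 1 or more examples of peaks with the KLF core alone, with AP-1 letters alone, with both and, in Tfap2a, with neither. Peaks with neither made up 14 of the 56, so those with letters are shown more often than they occur. Each is the peak, 5′ to 3′ on the strand of the gene. Capitals mark the KLF core CACCC or its reverse complement GGGTG, and the AP-1 letters TGANTCA. For Cers3 only the 135 bases inside the window are given.
Cers3: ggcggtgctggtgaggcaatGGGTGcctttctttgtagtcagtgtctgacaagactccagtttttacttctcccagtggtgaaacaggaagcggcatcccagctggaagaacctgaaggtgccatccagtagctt
Tgm3: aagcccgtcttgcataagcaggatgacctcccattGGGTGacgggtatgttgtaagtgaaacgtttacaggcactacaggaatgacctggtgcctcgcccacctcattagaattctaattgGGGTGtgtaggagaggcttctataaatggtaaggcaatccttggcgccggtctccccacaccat
Gsn: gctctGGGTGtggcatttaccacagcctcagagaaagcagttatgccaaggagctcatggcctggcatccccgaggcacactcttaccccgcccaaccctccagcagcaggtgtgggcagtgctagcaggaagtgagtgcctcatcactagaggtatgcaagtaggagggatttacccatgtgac
Rnh1: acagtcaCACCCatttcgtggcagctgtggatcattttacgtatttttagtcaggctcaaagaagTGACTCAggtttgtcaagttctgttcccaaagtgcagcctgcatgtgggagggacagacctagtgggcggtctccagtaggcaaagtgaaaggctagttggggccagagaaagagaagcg
Adgrf4: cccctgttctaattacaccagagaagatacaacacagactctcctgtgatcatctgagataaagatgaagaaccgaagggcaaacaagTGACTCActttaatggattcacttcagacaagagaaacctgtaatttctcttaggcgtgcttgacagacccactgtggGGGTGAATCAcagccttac
Rcan1: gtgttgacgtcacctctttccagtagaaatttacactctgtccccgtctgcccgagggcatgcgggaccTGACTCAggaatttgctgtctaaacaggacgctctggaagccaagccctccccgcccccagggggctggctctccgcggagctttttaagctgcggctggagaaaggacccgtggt
Elf5: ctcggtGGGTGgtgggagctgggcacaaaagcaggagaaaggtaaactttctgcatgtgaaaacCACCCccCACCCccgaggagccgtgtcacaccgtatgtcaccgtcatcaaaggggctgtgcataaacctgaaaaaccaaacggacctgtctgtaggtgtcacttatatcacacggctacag
Tfap2a: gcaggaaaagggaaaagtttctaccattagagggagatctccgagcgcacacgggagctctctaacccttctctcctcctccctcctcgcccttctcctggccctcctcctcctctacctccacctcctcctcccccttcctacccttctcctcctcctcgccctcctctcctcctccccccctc

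The Cers3 peak, chr7:66743419-66743603 on the plus strand, had its centre 7 bp from an internal start of the gene for ceramide synthase 3, which makes the very long chain ceramides of the barrier. Its score was 142 tags for HDAC3 and 438 tags for KLF4. At Tgm3, which encodes an epidermal transglutaminase, chr2:130012171-130012355 (plus strand) scored 89 for HDAC3 and 334 for KLF4. Gsn, for the actin-severing protein gelsolin, had a peak at chr2:35266596-35266780 (plus strand) with 84 tags for HDAC3 and 340 tags for KLF4. The Gsn sequence holds the longer KLF letters GGGTGTGG, which contain the core printed in capitals. Rnh1, for the ribonuclease inhibitor, scored 93 for HDAC3 and 325 for KLF4 at chr7:141168746-141168930 (minus strand), and its sequence has 1 match to each of the core and the AP-1 letters. Adgrf4, an adhesion G protein-coupled receptor gene, scored 86 for HDAC3 and 190 for KLF4 at chr17:42692312-42692496 (minus strand); its core match and the second of its AP-1 matches share bases. Rcan1, for a regulator of calcineurin, had 91 tags for HDAC3 and 125 tags for KLF4 at chr16:92400073-92400257 (minus strand), with AP-1 letters and no core. Elf5, for an ETS transcription factor, scored 34 for HDAC3 and 89 for KLF4 at chr2:103423907-103424091 (plus strand), with 3 core matches. Tfap2a, for the transcription factor AP-2 alpha, scored 57 for HDAC3 and 78 for KLF4 at chr13:40733824-40734008 (minus strand), with no match to either set of letters.

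Over the 56 peak sequences, CACCC or its reverse complement was found in 40 (71.4%, 57.8 to 82.7). It was found in 11 of 34 HDAC3 peaks without KLF4 placed in the same way (32.4%, 17.4 to 50.5) and in 35 of 61 KLF4 peaks without HDAC3 (57.4%, 44.1 to 70.0). In a stretch of peak width at each of 32851 annotated starts the share was 43.1%. The AP-1 letters TGANTCA stood in 12 of the 56 shared peaks (21.4%), 7 of the 34 HDAC3 peaks without KLF4 (20.6%) and 9 of the 61 KLF4 peaks without HDAC3 (14.8%), against 5.14% of annotated starts. GGGTGTGG was present in 6 shared peaks (10.7%), in 0 of the 34 HDAC3 peaks without KLF4 (interval up to 10.3%), in 5 of the 61 KLF4 peaks without HDAC3 and in 2.58% of starts. The other long KLF letters searched, GGGCGTGG, went the other way, with 1 of the 56 shared peaks (1.79%) against 4.12% of starts. They stood in 0 of the 34 HDAC3 peaks without KLF4 and 3 of the 61 KLF4 peaks without HDAC3 (4.92%). TEAD letters, GGAATG, stood in 19.6% of the shared peaks, 5.88% of the HDAC3 peaks without KLF4, 14.8% of the KLF4 peaks without HDAC3 and 9.41% of starts. Both strands were searched throughout. Median GC content was 54.6%, 52.2% and 54.1% in the shared peaks, the HDAC3 peaks without KLF4 and the KLF4 peaks without HDAC3, and 53.5% at the starts. A match in these few sequences is a description of letters, and peaks away from annotated starts were not searched.

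The share of gene-body HDAC3 peaks that had a KLF4 partner was 24.7% (6594 of 26731, 24.2 to 25.2), beside 25.8% over all HDAC3 peaks on chromosomes. Near gene ends 40.9% of 4038 HDAC3 peaks were shared (39.4 to 42.5), and between genes 24.7% of 27151 (24.2 to 25.2). From the side of KLF4, 30.2% of 21840 gene-body peaks had an HDAC3 partner (29.6 to 30.8). Gene bodies and the spaces between genes thus had the same share to 3 digits for HDAC3. For KLF4 they did not: between genes 33.2% of 20217 KLF4 peaks were shared (32.6 to 33.9). Near gene ends it was 32.6% of 5083 KLF4 peaks (31.3 to 33.9). By chromosome the share among gene-body HDAC3 peaks ran between 20.7% on chromosome 14 and 29.9% on chromosome 19, and chromosome Y had no shared gene-body peak.

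Peak scores, the caller's position-adjusted tag numbers, were chosen for in part by the rule, since a peak had to be called in both lists. The median HDAC3 score was 42 tags at shared gene-body peaks (quartiles 30 and 59, highest 238), against 20 tags at gene-body HDAC3 peaks without KLF4. The median KLF4 score was 93 tags at shared gene-body peaks (quartiles 55.3 and 162, highest 806), against 56 tags at gene-body KLF4 peaks without HDAC3. Shared peaks between genes had medians of 43 tags for HDAC3 and 93 tags for KLF4. Shared peaks near gene ends had 45 tags for HDAC3 and 92 tags for KLF4, so these heights were not particular to gene bodies. Only 6.32% of shared peaks lay within 4 tags of the HDAC3 calling threshold of 16 tags, against 56.2% of HDAC3 peaks without KLF4. Of gene-body HDAC3 peaks with at least 50 tags, 85.8% were shared (2451 of 2858), and of those with at least 100 tags, 97.9% (324 of 331). At 150 tags or more 54 of 55 were shared.

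HDAC3 and KLF4 scores moved together over the 6594 shared peaks, with a Spearman correlation of 0.723. The points share the input library and local chromatin: the input tags at both peaks of a pair correlated at 0.836, and the HDAC3 score with input tags at 0.621. Folds over input correlated less, at 0.454. In the 1649 shared peaks with the lowest HDAC3 scores the median KLF4 score was 45 tags and the median distance between both centres 43 bp. In the 1649 with the highest HDAC3 scores these medians were 188 tags and 22 bp. Median input rose alongside, with 2 tags in the lowest and 6 tags in the highest of these sets. Its part in the relation was not tested. Median HDAC3 fold over input was 6.61 in the lowest set and 9.1 in the highest.

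**Figure D1:**
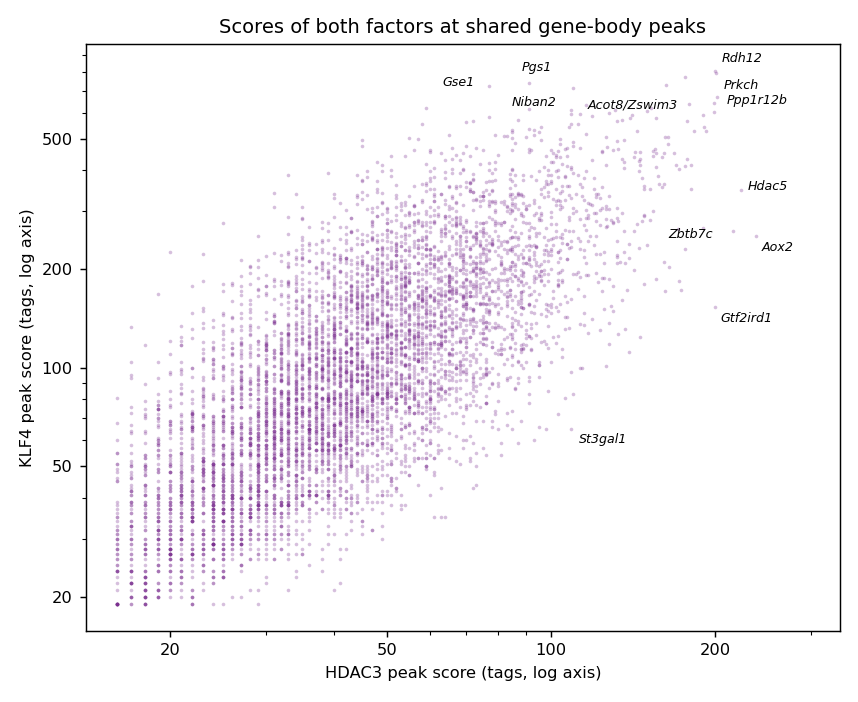
HDAC3 score against KLF4 score of each shared gene-body peak, both in tags on log axes; every point is 1 peak and some are named by gene. Aox2, Hdac5 and Zbtb7c lie farthest right, Rdh12 and Prkch highest, and Gtf2ird1 and St3gal1 lie low for their HDAC3 score.

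Centres of both factors lay close together in part by the rule, which limits their distance. The median distance between centres was 31 bp (quartiles 13 and 58). It was 31 bp at shared peaks between genes (quartiles 14 and 59) and 30 bp at those near gene ends (13 and 62). The closeness was thus not particular to gene bodies. Centres lay within 50 bp of each other at 4656 peaks (70.6%, 69.5 to 71.7), within 10 bp at 1304 (19.8%), and on the same base at 53. At the limit for sharing, the peaks just inside, with 1 base in common, lay in Cars, Smim14 and Gcnt2, with HDAC3 scores of 45, 43 and 38 tags. Those just outside, whose KLF4 peak adjoined without overlap, lay in Rbms3, Cuedc1 and Usf1, with HDAC3 scores of 57, 39 and 38 tags. In all, 491 gene-body HDAC3 peaks, these 3 included, had their nearest KLF4 centre outside the limit and within 400 bp. At the limit of 1 kb, peaks in Wbp1l, Smad5 and Ago1 were 1001, 1002 and 1003 bp from a gene end, and peaks in Tspan9 and Hnrnpul1, at 996 and 992 bp, were left out.

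The leading shared peak by HDAC3 score lay in Aox2, an aldehyde oxidase gene, at chr1:58307260-58307444. It had 238 tags for HDAC3, 252 tags for KLF4 and 3 input tags, with folds over input of 62.3 for HDAC3 and 41.5 for KLF4. Aox2 held 4 further shared peaks, with HDAC3 scores between 45 and 144 tags. Next came Hdac5, a class IIa histone deacetylase gene, at chr11:102211946-102212130, with 223 tags for HDAC3 and 349 tags for KLF4 over 10 input tags. Zbtb7c, for a BTB zinc finger protein, followed with 216 tags for HDAC3 and 262 tags for KLF4 at chr18:76067255-76067439. In these leading peaks the ratio of tags scaled to 10000000 per library, HDAC3 over KLF4, was 1.49 at Aox2, 0.943 at Hdac5 and 1.22 at Zbtb7c, against a median of 0.645 over all shared gene-body peaks. Over the 15 highest peaks by HDAC3 score the ratio ran between 0.274 at Rdh12 and 2.33 at Gtf2ird1, and 9 of the 15 lay below that median.

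Prkch, for the protein kinase C eta of differentiating keratinocytes, was among the next highest, with 201 tags for HDAC3 and 795 tags for KLF4 at chr12:73617752-73617936. Rdh12, a retinol dehydrogenase gene, had 200 tags for HDAC3 and 806 tags for KLF4, the highest KLF4 score of the set, at chr12:79211583-79211767. Evpl, for the cornified envelope protein envoplakin, had 190 tags for HDAC3 and 592 tags for KLF4 at chr11:116237058-116237242, which is 1015 bp from a gene end and so only just inside the limit. In Stat3, which encodes a cytokine-activated transcription factor, the top peak at chr11:100897538-100897722 had 190 tags for HDAC3 and 266 tags for KLF4, centred on the same base. The other peaks among the 15 highest by HDAC3 score lay in Ppp1r12b, Gtf2ird1, Acot8 together with Zswim3, Zdhhc18, Rab44, Erlin1, Bin2 and Tbc1d10a, at 181 to 202 tags for HDAC3 and 153 to 672 tags for KLF4.

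By KLF4 score, Rdh12 and Prkch were followed by a peak in Ablim1, for an actin-binding LIM protein, then Pgs1 and a second peak in Ablim1. The taller Ablim1 peak, at chr19:57182274-57182458, had 176 tags for HDAC3 and 773 tags for KLF4; the other, at chr19:57128173-57128357, had 163 tags for HDAC3 and 728 tags for KLF4. Pgs1, Gse1 and Niban2 had KLF4 scores of 738, 726 and 715 tags, with HDAC3 scores of 91, 77 and 110 tags. High KLF4 was thus not always matched by the highest HDAC3 scores. Ehd1, for an endosomal recycling protein, had 179 tags for HDAC3 and 636 tags for KLF4.

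Ranked instead by the lower of both folds over input, the leading peak lay in Copg1, for a COPI coat subunit, with 174-fold for HDAC3 and 213-fold for KLF4. It was followed by 1110051M20Rik, Slc22a4 and Foxo3, the last at 130-fold for HDAC3 and 109-fold for KLF4. The HDAC3 folds of these peaks rest on an input of 0.5, the value the caller writes for no tag, and are imprecise. Of the 10 leading peaks by this rank, Gatb and Cbfa2t3 had 1 input tag in the HDAC3 list and the others 0.5, F11r, Mideas, Trak1 and Klhl8 among them. None was among the 15 highest by HDAC3 score, and over all shared gene-body peaks HDAC3 fold and HDAC3 score correlated at 0.211.

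The shared gene-body peaks fell in 3867 of 21883 protein-coding genes, a share of 17.7%. Of the 19230 genes with any sequence more than 1 kb from a gene end it was 20.1%. Long genes offer more sequence, and the share followed length: 2.27% of genes up to 10 kb, 14.7% between 10 and 30 kb, 30.4% between 30 and 100 kb and 49.2% above 100 kb. Host genes had a median length of 56.2 kb, against 17.2 kb over all protein-coding genes. Most hosts, 2464, held 1 shared peak and 797 held 2. A further 606 held 3 or more, together 2586 peaks, and 19 held 10 or more. A shared peak at a gene end was also present in 460 hosts (11.9%, 10.9 to 13.0), against 7.56% of other protein-coding genes (7.18 to 7.96). Seen from the other side, 25.2% of the 1822 genes with a shared gene-end peak also held such a peak in the body.

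Along the gene, shared peaks were densest next to the 5′ end. In the 17491 protein-coding genes with an annotated strand, there were 17.4 shared peaks per Mb of eligible sequence between 1 and 2 kb from the 5′ end, 10.9 between 2 and 5 kb, 8.27 between 20 and 50 kb and 3.52 beyond 100 kb. HDAC3 peaks without KLF4 had 29.5 per Mb between 1 and 2 kb and then stayed between 20.9 and 23.3 up to 100 kb, with 16.6 beyond it. KLF4 peaks without HDAC3 fell at each step with distance, with 36.7 per Mb nearest the 5′ end and 8.74 beyond 100 kb. The 3′ end showed no such rise: shared peaks had 7.31 per Mb between 1 and 2 kb from it and 8.42 between 20 and 50 kb. Of 5175 shared peaks with 1 stranded host, 55.7% lay nearer the 5′ than the 3′ end (54.3 to 57.1), against 50.4% of HDAC3 peaks without KLF4 (49.6 to 51.2) and 53.7% of KLF4 peaks without HDAC3 (52.8 to 54.6).

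**Figure D2:**
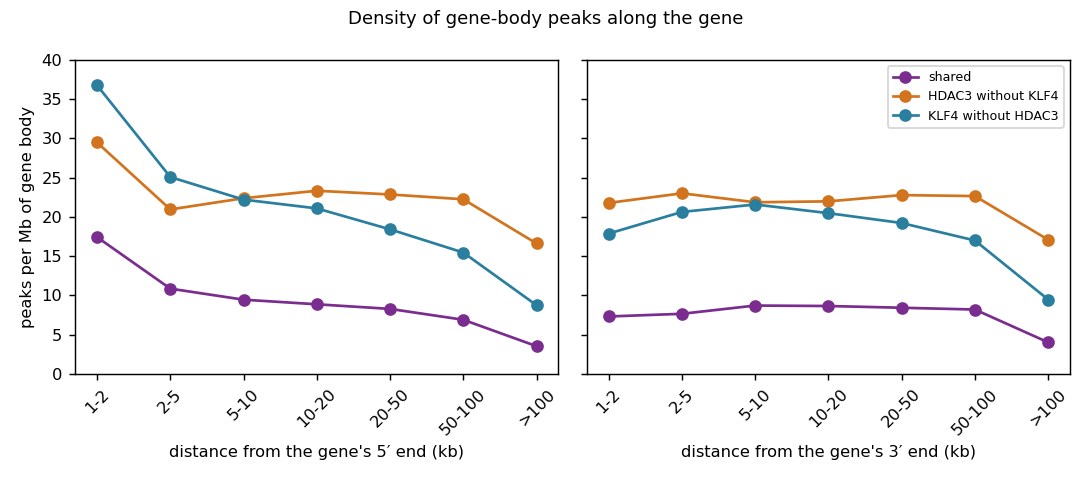
Peaks per Mb of eligible gene-body sequence against the distance from the 5′ end (left) and the 3′ end (right), in kb, for shared peaks, HDAC3 peaks without KLF4 and KLF4 peaks without HDAC3. Shared peaks are at 17.4 per Mb in the bin nearest the 5′ end and at 7.31 per Mb in the bin nearest the 3′ end.

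The share of HDAC3 peaks that had KLF4 fell with distance from the nearest gene end, while the share of KLF4 peaks that had HDAC3 changed little. For HDAC3 it was 32.0% between 1 and 2 kb (29.6 to 34.5), 26.0% between 10 and 20 kb and 15.5% beyond 100 kb (14.3 to 16.8). For KLF4 it lay between 28.4% and 32.4% in every bin. Unshared HDAC3 peaks were low throughout, with median scores of 19 to 22 tags. Among gene-body HDAC3 peaks at or above the median score the decline was smaller, with 46.8% shared between 1 and 2 kb and 38.9% beyond 100 kb. Among KLF4 peaks at or above the median score the order was the other way, with 37.9% shared between 1 and 2 kb and 43.5% beyond 100 kb. Scores of the shared peaks themselves also fell with distance: the median was 45 tags for HDAC3 and 105 tags for KLF4 between 1 and 2 kb, and 36 tags for HDAC3 and 69 tags for KLF4 beyond 100 kb.

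**Figure D3:**
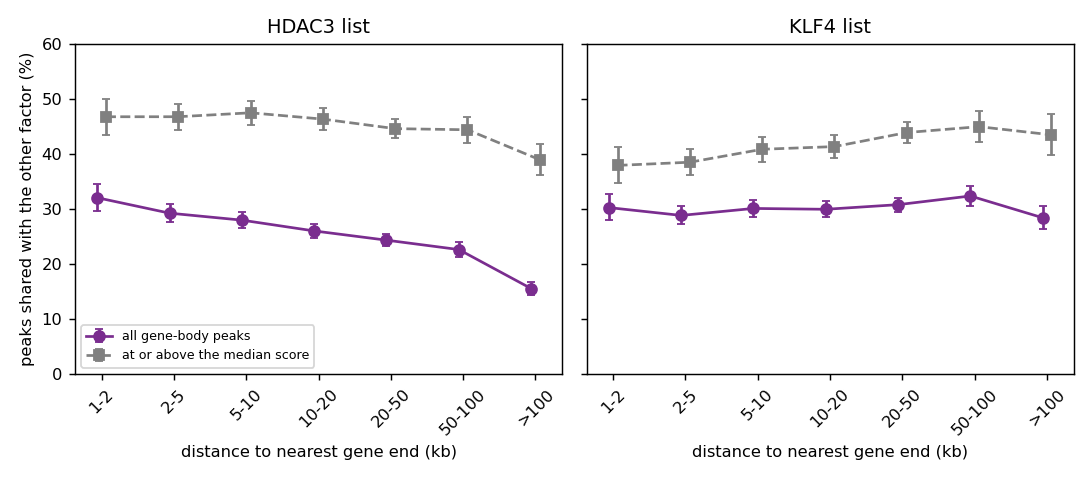
Percent of gene-body HDAC3 peaks (left) and KLF4 peaks (right) shared with the other factor, by distance to the nearest gene end in kb; circles show all peaks, squares those at or above the median score, and bars exact 95% intervals. The HDAC3 share goes down to 15.5% beyond 100 kb, and the KLF4 share stays between 28.4% and 32.4%.

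Rora, which encodes a retinoid-related orphan nuclear receptor, held the most shared peaks, 16 in 735 kb, beside 19 HDAC3 peaks without KLF4 and 37 KLF4 peaks without HDAC3. Their HDAC3 scores ran between 23 and 91 tags and their KLF4 scores between 50 and 456 tags. A group of 3 neighbours, starting at 68944111, 68946896 and 68951828 on chromosome 9, had 75, 72 and 69 tags for HDAC3 and 276, 326 and 400 tags for KLF4. Ablim1 came next with 14 in 283 kb and only 6 HDAC3 peaks without KLF4, with HDAC3 scores between 25 and 176 tags. Lpp, for a LIM protein of cell contacts, and Magi1, for a scaffold protein of tight junctions, held 12 each in 599 and 608 kb, beside 21 HDAC3 peaks without KLF4 in Lpp and 26 in Magi1. Shared peaks in Magi1 were low, at most 69 tags for HDAC3. Zbtb7c, Tenm4, Sgms1, Nsmce2 and Auts2 held 11 each. Tbcd and 9 further genes held 10 each, among them the polarity gene Pard3, the nuclear envelope gene Syne2 and Tiam1, for an activator of Rac.

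**Figure D4:**
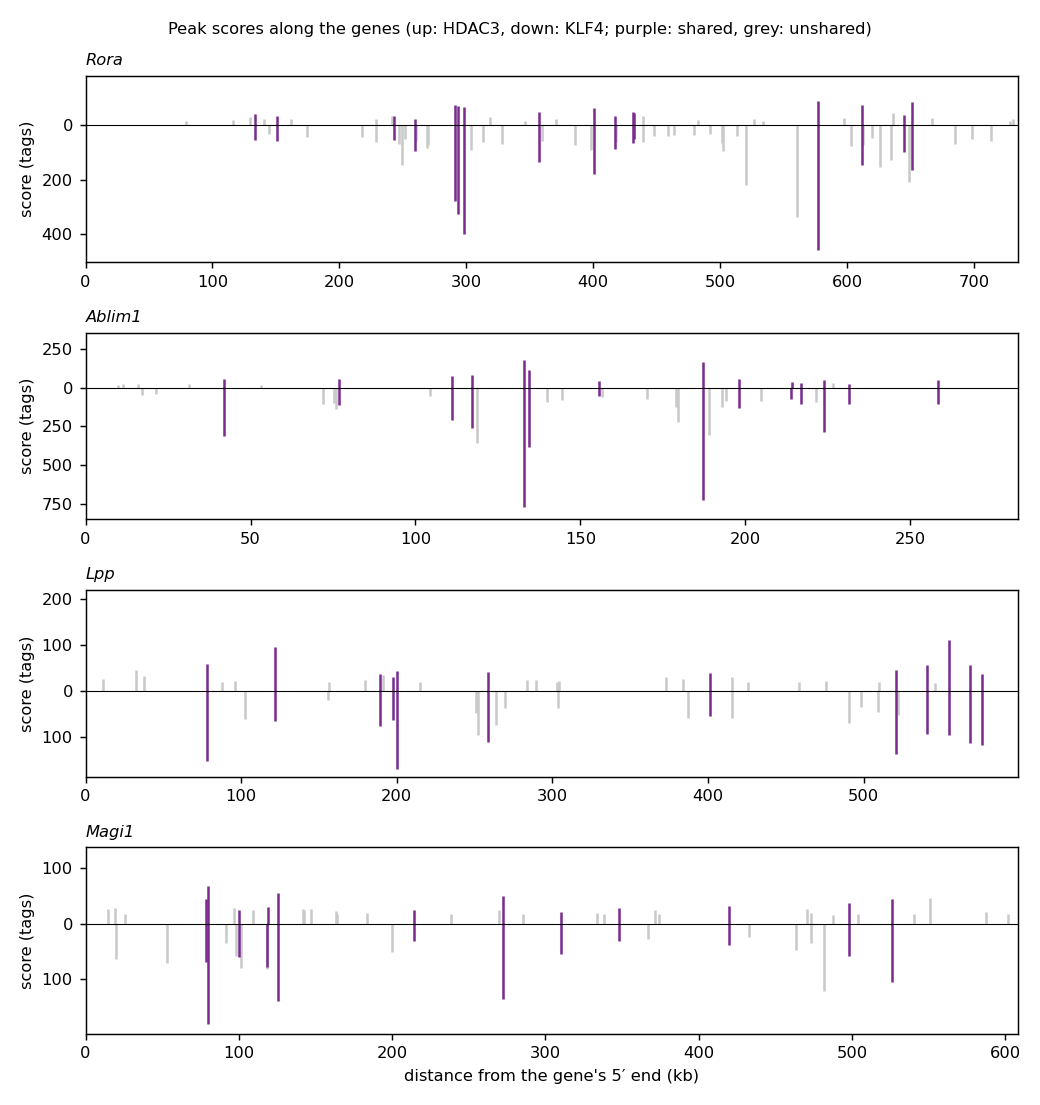
Peaks along the 4 genes with the most shared peaks and a known strand, by distance from the 5′ end in kb; upward lines give HDAC3 scores and downward lines KLF4 scores in tags, purple where shared and grey where not. Rora has its tallest KLF4 line, 456 tags, at a shared peak, and Ablim1 has shared pairs at 773 and 728 tags for KLF4.

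The count of a long gene owes much to its length, so genes with at least 5 shared peaks were also ordered by density, an order chosen after values were seen. Tle3, for a Groucho family corepressor, led with 6 shared peaks, or 13.6 per 100 kb of eligible sequence. Their HDAC3 scores lay between 52 and 93 tags and their KLF4 scores between 80 and 278 tags, and Tle3 had no HDAC3 peak without KLF4. Ptges, for a prostaglandin E synthase, had 5 (12.6 per 100 kb), with a top peak of 126 tags for HDAC3 and 304 tags for KLF4. Pou2f3, for an epidermal POU factor of differentiating layers, had 9 in 81.8 kb (11.3 per 100 kb) and only 2 HDAC3 peaks without KLF4. Gsn had 5 (10.1 per 100 kb) and Tgm3 had 6 (9.90 per 100 kb). The Tgm3 peaks had HDAC3 scores of 55, 53, 89, 72, 36 and 56 tags and KLF4 scores of 136, 193, 334, 198, 72 and 111 tags in order of position, so the internal start shown above carried the tallest peak of both factors. Stat3 had 5 (9.85 per 100 kb), of which 3 had 99 tags or more for HDAC3.

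Spacing was read from each shared gene-body peak to its nearest neighbour of the same group. The median distance to the next one was 28236.5 bp, and 13.1% lay within 5 kb of another (12.3 to 13.9), against 3622 of 20137 HDAC3 peaks without KLF4 with respect to each other (interval 17.46 to 18.52%) and 21.3% of KLF4 peaks without HDAC3. There are fewer shared peaks than peaks of either other group, and that alone makes neighbours rarer. Per Mb of gene body there were 6.67 shared peaks, 20.4 HDAC3 peaks without KLF4 and 15.4 KLF4 peaks without HDAC3. The shares within 5 kb were not adjusted for this, so they do not rank the groups by how tightly their peaks are packed.

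Gene lists of the epidermis were then read against the 17.7% of all protein-coding genes that held a shared gene-body peak, with the length of the genes in view. Over all genes the share was 14.7% between 10 and 30 kb, 30.4% between 30 and 100 kb and 49.2% above 100 kb. For lists of long genes 17.7% is therefore a low mark. Of 35 matched genes of barrier lipid synthesis and transport, 23 held at least 1 (65.7%, 47.8 to 80.9), at a median gene length of 28.6 kb. The top peaks lay in Gltp, for a glycolipid transfer protein (160 tags for HDAC3, 440 tags for KLF4), Cers3 (142 tags for HDAC3, 438 tags for KLF4), Cyp4f39, for the omega hydroxylase of acylceramides (141 tags for HDAC3, 590 tags for KLF4), and Elovl6, a fatty acid elongase gene (120 tags for HDAC3, 237 tags for KLF4). Elovl6 held 6 shared peaks and Cers3 held 4. Abca12, for the lipid transporter of lamellar granules, held 5, the tallest at 58 tags for HDAC3 and 119 tags for KLF4. The lipoxygenase genes Alox12b and Aloxe3 had top HDAC3 scores of 81 and 66 tags, with KLF4 scores of 207 and 168 tags there. No shared gene-body peak was found in Fa2h, Sptlc2 or Slc27a4 of the same list.

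Cornified envelope and late differentiation genes were hosts at 14 of 44 (31.8%, 18.6 to 47.6). Many are short: 25 of the 44 span at most 10 kb, and 1 of those 25, the cystatin gene Cst6, held a shared gene-body peak. Evpl led this list, followed by Sbsn, for suprabasin (117 tags for HDAC3, 286 tags for KLF4), Tgm5 (94 tags for HDAC3, 235 tags for KLF4) and Tgm3. The Sbsn centres were 165 bp apart, near the limit for sharing. Flg, for filaggrin, had 1 shared peak at 39 tags for each factor, and its centres were 159 bp apart. The periplakin gene Ppl held 3, with 68 tags for HDAC3 and 289 tags for KLF4 at the top. Ivl, Lor and Tgm1 held none. A shared peak within 1 kb of a gene end was present in 23 of the 44 genes, beside 1822 of all 21883 protein-coding genes.

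In the junction lists, 8 of 14 desmosome genes (57.1%, 28.9 to 82.3) and 15 of 28 adherens and tight junction genes (53.6%, 33.9 to 72.5) held a shared gene-body peak, at median lengths of 34.0 and 39.5 kb. Pkp1, for the desmosomal plaque protein plakophilin 1, held 3, with 126 tags for HDAC3 and 505 tags for KLF4 at the top. Jup, for plakoglobin, had 105 tags for HDAC3 and 417 tags for KLF4, Dsp, for desmoplakin, 104 tags for HDAC3 and 157 tags for KLF4, and Dsc1, for desmocollin 1, 74 tags for HDAC3 and 236 tags for KLF4. Nectin1, a gene for an adhesion molecule of adherens junctions, led the second list with 145 tags for HDAC3 and 427 tags for KLF4. The E-cadherin gene Cdh1 followed with 136 tags for HDAC3 and 225 tags for KLF4, and its neighbour Cdh3, for P-cadherin, had 91 tags for HDAC3 and 218 tags for KLF4. Cldn1, for a claudin of the epidermal tight junction, held 3 shared peaks in 15.2 kb. Its gene-body HDAC3 peaks were all shared, as were its gene-body KLF4 peaks. Pard3 held 10 and Ocln, for occludin, held 5.

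Basal layer and hemidesmosome genes were hosts at 13 of 22 (59.1%, 36.4 to 79.3), at a median length of 49.5 kb. With both folds over input at 8 or more, 4 of these genes were hosts. Lama3, a laminin chain gene, led with 108 tags for HDAC3 and 132 tags for KLF4, and Itga3, for the integrin alpha 3 chain, had 96 tags for HDAC3 and 207 tags for KLF4. Syne2 had 90 tags for HDAC3 and 504 tags for KLF4, and Dst, for the plakin of hemidesmosomes, 86 tags for both. Trp63, the gene for the p63 factor of epidermal stem cells, had 2, the taller with 73 tags for HDAC3 and 204 tags for KLF4. The basal keratin genes Krt5 and Krt14 held none. In this list 4 of the 22 genes span at most 10 kb, and 0 of those 4 were hosts. Of 22 genes of the spinous layer and Notch pathway 10 were hosts (45.5%, 24.4 to 67.8), at a median length of 20.4 kb. They were led by the receptor gene Notch2 with 124 tags for HDAC3 and 355 tags for KLF4, the ligand gene Jag1 with 115 tags for HDAC3 and 228 tags for KLF4, and the keratin gene Krt80 with 95 tags for HDAC3 and 104 tags for KLF4. Ovol1, for a zinc finger factor of differentiation, had 82 tags for HDAC3 and 316 tags for KLF4, and Rbpj, for the DNA-binding partner of Notch, 34 tags for HDAC3 and 83 tags for KLF4. Notch1, Krt1 and Krt10 held none. Here 6 of the 22 genes span at most 10 kb, and 0 of those 6 were hosts. Short genes have little sequence over 1 kb from their ends, and shared peaks nearer the ends are not counted.

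Transcription factor genes of the epidermis held shared gene-body peaks at 26 of 45 (57.8%, 42.2 to 72.3), with a median length of 29.9 kb. Tead1, for a DNA-binding partner of YAP, led with 178 tags for HDAC3 and 432 tags for KLF4 at its top peak and held 9. The homeobox gene Barx2 had 146 tags for HDAC3 and 124 tags for KLF4. Zfp750, for a zinc finger factor of terminal differentiation, had 121 tags for HDAC3 and 296 tags for KLF4; its span lies within that of Tbcd, and both its shared peaks are counted for both genes. Mafk followed with 98 tags for HDAC3 and 157 tags for KLF4. Members of the KLF family were Klf3 (92 tags for HDAC3, 460 tags for KLF4), Klf6 and Klf5, and the grainyhead-like genes Grhl1 and Grhl2 held 2 and 3. Klf4 itself, Grhl3 and Cebpa held none. Among the 45 genes 11 span at most 10 kb, and 2 of those 11 were hosts. A gene that held none may still have a shared peak within 1 kb of its ends. The immediate early and AP-1 list was the lowest, at 2 of 21 (9.52%, 1.17 to 30.4). Of its genes 16 are at most 10 kb long, and both hosts were among them (2 of 16, against 2.27% of all genes up to 10 kb), while none of the other 5 was a host. Under each of the 8 other settings run, 0 or 1 gene of this list was a host. A shared peak near an end was present in 8 of the 21, beside 1822 of all 21883 protein-coding genes. The 2 hosts were Ier5 and Klf10, with HDAC3 scores of 41 and 36 tags.

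Nuclear receptor and coregulator genes were hosts at 15 of 28 (53.6%, 33.9 to 72.5), at a median length of 61.3 kb. Rxra, for the shared partner of many nuclear receptors, led with 152 tags for HDAC3 and 350 tags for KLF4. Ppard, for the peroxisome proliferator-activated receptor delta, had 99 tags for HDAC3 and 149 tags for KLF4, Rarg, for a retinoic acid receptor, 95 tags for HDAC3 and 310 tags for KLF4, and Rora 91 tags for HDAC3 and 456 tags for KLF4. Vdr, the vitamin D receptor gene, held 3, at most 79 tags for HDAC3. Among 21 genes of the HDAC3 complex and other deacetylases 9 were hosts (42.9%, 21.8 to 66.0), at a median length of 51.8 kb. Hdac5 led; among the others, Mta2 had 66 tags for HDAC3 and 94 tags for KLF4, and Hdac7 had 54 tags for HDAC3 and 139 tags for KLF4. Hdac3 and Ncor1 held none.

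Among signalling genes, 8 of 29 of the EGF receptor pathway (27.6%, 12.7 to 47.2), 11 of 25 of the Hippo pathway (44.0%, 24.4 to 65.1) and 18 of 36 of the TGF-beta, BMP and Wnt pathways (32.9 to 67.1%) were hosts. Their median lengths were 50.1 kb for the EGF receptor list, 73.7 kb for Hippo and 66.5 kb for TGF-beta, BMP and Wnt. Of all genes of 30 to 100 kb, where the median length of the EGF receptor list falls, 30.4% were hosts. The list was not matched to these genes by length: 5 of its 29 genes span at most 10 kb, and 0 of those 5 were hosts. With both folds over input at 8 or more, 3 genes of the EGF receptor list, 6 of Hippo and 4 of TGF-beta, BMP and Wnt were hosts. The ligand gene Tgfa had 132 tags for HDAC3 and 287 tags for KLF4, the receptor gene Erbb2 123 tags for HDAC3 and 329 tags for KLF4, and the ligand gene Ereg 73 tags for HDAC3 and 209 tags for KLF4. Egfr itself held 9 shared peaks, at 24 to 83 tags for HDAC3 and 57 to 268 tags for KLF4. Wwtr1, for the coactivator TAZ, had 160 tags for HDAC3 and 357 tags for KLF4 and Vgll4, for a TEAD cofactor, 100 tags for HDAC3 and 275 tags for KLF4, while Yap1 held none. Amotl1, an angiomotin family gene, had 68 tags for HDAC3 and 199 tags for KLF4. Ski, for a corepressor of SMAD proteins, had 136 tags for HDAC3 and 494 tags for KLF4 over 19 input tags, so its HDAC3 fold was 4.89. Wnt4 had 85 tags for HDAC3 and 230 tags for KLF4, Lrp5, for a Wnt coreceptor, 66 tags for HDAC3 and 272 tags for KLF4, and Smad3 62 tags for HDAC3 and 188 tags for KLF4.

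Hosts made up 7 of 28 genes of NF-kB signalling and inflammation (10.7 to 44.9%, median length 14.6 kb), led by Stat3, Card14 (88 tags for HDAC3, 158 tags for KLF4), Tnip1 (58 tags for HDAC3, 162 tags for KLF4) and Relb (48 tags for HDAC3, 210 tags for KLF4). For actin, polarity and small GTPase genes they made up 22 of 35 (62.9%, 44.9 to 78.5), at the longest median length of the lists, 93.3 kb. Tanc1 had 111 tags for HDAC3 and 300 tags for KLF4, Plekha6 105 tags for HDAC3 and 240 tags for KLF4, Limk2, for a kinase of cofilin, 105 tags for HDAC3 and 198 tags for KLF4, and the planar polarity gene Celsr1 96 tags for HDAC3 and 146 tags for KLF4. Of 19 Eph receptor and ephrin genes 8 were hosts (42.1%, 20.3 to 66.5, median length 24.4 kb), with Ephb3 at 96 tags for HDAC3 and 297 tags for KLF4, Efna5 at 90 tags for HDAC3 and 181 tags for KLF4, Ephb2 at 86 tags for HDAC3 and 114 tags for KLF4, and Efna3 at 78 tags for HDAC3 and 394 tags for KLF4.

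Markers of other cell types, the list of cells that epidermis may contain or that may adhere to it, were hosts at 7 of 38 (18.4%, 7.74 to 34.3), close to the 17.7% of all genes although their median length was 39.1 kb. The neuronal gene Rbfox3 had 112 tags for HDAC3 and 174 tags for KLF4, the endothelial gene Pecam1 76 tags for HDAC3 and 138 tags for KLF4, the myelin gene Mbp 55 tags for HDAC3 and 229 tags for KLF4, and the muscle gene Ryr1 54 tags for HDAC3 and 78 tags for KLF4. These were the 4 highest of the 7 hosts by HDAC3 score. The fibroblast genes Col1a1 and Pdgfra and the T cell gene Cd3e are examples of the genes that held none. Melanocyte, Merkel and Langerhans cell markers were also in the list. Hosts are not counted by cell type here, so a named gene does not stand for its cell type. Peaks say nothing of which cells carried them, and the part of other cell types in these values was not tested. The intervals of most lists are wide and several lists share genes, so no list is singled out from these counts.

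**Figure D5:**
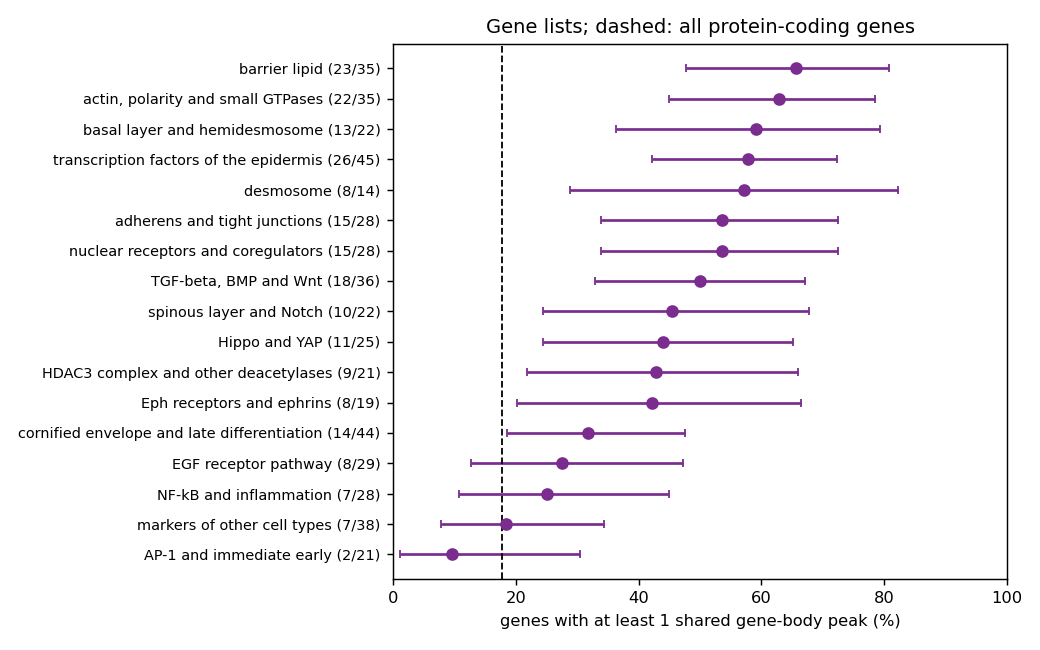
Percent of matched genes of each list that held at least 1 shared gene-body peak, with exact 95% intervals; counts are given beside each name and the dashed line is the 17.7% of all protein-coding genes. Barrier lipid genes are highest at 65.7% and the AP-1 and immediate early list is lowest at 9.52%. The dashed line is not adjusted for gene length.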

How the data were processed

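Members and gene lists were chosen with earlier results of these data known. The submitters' processing notes name bcl2fastq, STAR, HOMER and the build GRCm38.p5, with versions not given in the sources used here. HOMER called each list in its factor style from 1 library against the same input, per the file headers, with peaks of a fixed width, at least 4-fold over input and over the local 10 kb, and a false discovery rate of 0.001. Tag thresholds were 16 for HDAC3 and 19 for KLF4, so a missing partner may be a peak below threshold.

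The deposited score, a tag number adjusted for position by the caller, ranks peaks only within a list. Each fold is the caller's deposited ratio over input or local tags. The deposited tag signal is scaled to 10000000 tags. Input tags are low, and 0 is written as 0.5. The deposited p-value of each peak and the focus ratio, a fraction in the deposited lists, entered no result.

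Peaks were placed on the RefSeq gene table of GRCm38.p6, whose patches leave chromosome coordinates as they are, and RefSeq starts gave strand and sequence. The 1 kb rule used 21883 protein-coding genes. Lists covered 479 distinct matched genes, and 2 symbols found no match. Named peaks are the 15 highest by HDAC3 score, the 10 highest by KLF4 score and by lower fold, the 10 genes with most shared peaks, the 4 highest per list and those at the limits. Other genes were named after their values were seen. A few results that this rule would name are not reported here. Placement was tested on simulated peaks. Motif searches away from annotated starts were planned and not run, since no genome was used here. Python 3.11.15, numpy 2.4.6, pandas 2.3.3 and scipy 1.17.1 were used.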

Additional observations from a re-analysis of the deposited data

How the results depend on the processing

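With 1 library per antibody no replicate could be left out. No paired analysis was possible because each group has 1 library. A total of 8 other settings were run. They moved several values by more than counting error or 1.5 times, and in all of them HDAC3 peaks with KLF4 stayed a minority of gene-body HDAC3 peaks, except with at least 5 input tags. Centres within 92 bp gave a share of 22.0% and a median KLF4 score of 98 tags. Centres within 50 bp gave 17.4%, with medians of 45 tags for HDAC3 and 103 tags for KLF4. Over 5 kb from gene ends these values were 23.6%, 41 and 90. Over 10 kb they were 22.7%, 41 and 88.5, with 4226 peaks in 2251 genes. Peaks at least 8-fold over input gave 2310 peaks in 1797 genes, 21.3%, 51 and 117. The higher-scored 50% of each list gave 33.0%, 51 and 131. At least 5 input tags gave 2064 peaks in 1547 genes, 61.3%, 60 and 155. Ends of every annotated gene changed none of these results beyond those margins. Of 136 counts of list genes recomputed, 101 were within 1.5 times and 35 were not. At 8-fold or more in both lists hosts fell to 4 against 18 for TGF-beta, BMP and Wnt, 4 against 13 for the basal layer and 3 against 8 for the EGF receptor pathway, beside 1797 against 3867 over all genes. The AP-1 list had 0 or 1 host in each of the 8 settings, against 2. Input of a few tags per peak limits every fold, and most HDAC3 peaks without KLF4 lie near the calling threshold.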

Other observations

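Of the 6594 shared gene-body peaks, 1281 (19.4%, 18.48 to 20.40) had more HDAC3 than KLF4 tags after scaling to 10000000 per library. These had a median HDAC3 score of 39 tags, against 43 tags in the other 5313, and a median KLF4 score of 42 tags, against 111 tags. Since the peaks were split by HDAC3 against KLF4 tags, a lower KLF4 score follows from the split. Among peaks with at least 100 tags for HDAC3, chosen after values were seen, the ratio of HDAC3 to KLF4 was highest in St3gal1 at 2.36 and Gtf2ird1 at 2.33, followed by Barx2 at 2.0 and St6gal1 at 1.97. St3gal1 and St6gal1 both encode sialyltransferases. The Gtf2ird1 peak had 200 tags for HDAC3 and 153 tags for KLF4 over 2 input tags at chr5:134433234-134433418. At the other end lay Niban2 at 0.174, Ankrd11 at 0.211 and Itpkb at 0.216. The libraries differ in antibody and efficiency, so the ratio orders peaks and gives no amount of either protein.

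A microRNA hairpin lay within 1 kb of 15 of the 6594 shared gene-body peaks. How often other gene-body peaks lie so near a hairpin was not counted. The number therefore shows no trait particular to shared peaks. The centre of a peak in Nlrp12 with 32 tags for HDAC3 and 81 tags for KLF4 was 3.5 bp from the hairpin of Mir293. A peak in Gm38821 with 58 tags for HDAC3 and 216 tags for KLF4 lay 813 bp from Mir148a. A peak in Erbb3 with 68 tags for HDAC3 and 121 tags for KLF4 lay 175 bp from Mir6917.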
